A study of Mus musculus with 16 samples.

Results

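The mitochondrial ribosomal protein genes were followed in mouse lung across 2 genotypes and an ovalbumin challenge. The members are all probes of the array whose annotated symbol begins with Mrpl or Mrps and a number. This rule uses no measured value, though the gene family was chosen with earlier results of these data known. They comprise 110 of 25697 probes and 76 of 16593 named genes. The arrays are Illumina BeadChips, on which beads carry gene-specific probes, and each of the 16 arrays measured lung RNA of a different mouse, 4 mice in each of 4 groups. All mice were females of the C57BL/6N strain aged 17 weeks, and a portion of each mouse's lung was used for the RNA, per the design text. The groups were challenged mutants, challenged wild types, untreated mutants and untreated wild types. The mutants are Cox4-2 knockouts, lacking the isoform of a cytochrome c oxidase subunit whose gene is named Cox4i2 on the array. Challenge meant an intraperitoneal sensitisation with 10 µg ovalbumin in 2 mg alum, followed by 3 inhalations of 1% ovalbumin aerosol for 30 min, per the labels' protocols. Untreated mice carry no treatment in the labels, which are silent on whether those mice were sensitised. The labels name no second allele and do not say which part of Cox4i2 was deleted.

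Mitochondria keep ribosomes of their own, which translate the few messages encoded by mitochondrial DNA, all of them for subunits of the respiratory chain and ATP synthase. The ribosomal RNAs come from mitochondrial DNA, whereas every ribosomal protein is encoded in the nucleus, made in the cytosol and imported. Some of these proteins descend from bacterial ribosomal proteins, and others exist in mitochondrial ribosomes only. Genes named Mrpl mostly encode proteins of the large subunit, which joins amino acids, and genes named Mrps mostly encode proteins of the small subunit, which reads the message. Mrps18a and Mrps30 are exceptions and belong to the large subunit.

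Of the 110 member probes, 97 probes of 70 genes were kept for testing, meaning that their intensity was above the background limit of 16.8 on at least 4 of the 16 arrays. Among the kept probes, 93 were above the limit on all 16 arrays and 4 on some of them, so the filter seldom depended on the group. A further 2 probes, of Mrps14 and Mrps10, were above it on fewer than 4 arrays, and 11 on none. Mrpl19, Mrpl21, Mrpl32, Mrpl45, Mrps14 and Mrps36 had no kept probe. The kept probes divide into 61 of the large subunit (45 genes) and 36 of the small subunit (25 genes). The authors' second, non-normalised table gives 5 of the 110 probes another symbol, among them the Mrpl42 probe, which it lists under an older name, and the Mrps5 probe described here, which it lists as a predicted locus.

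The targeted gene Cox4i2 lay at 104 to 243 on the challenged mutant arrays against 182 to 305 on the challenged wild-type arrays, and at 77.5 to 189 on the untreated mutant arrays against 247 to 372 on the untreated wild-type arrays. The log2 difference between mutant and wild type was -0.68 under challenge and -0.90 without it (limma, adjusted p = 0.289 and 0.165); the groups overlapped under challenge and did not overlap without it, and neither difference passed the threshold. Markers of the labelled tissue ranged widely over all arrays, from the surfactant gene Sftpc at 19829 to 32045 to Foxj1 at 58.9 to 132. Of the 10 lung markers 9 had a kept probe, and Hopx, at -19.8 to -0.679, did not. RNA of other tissue was also present on 3 challenged arrays, namely mutant array 2 and wild-type arrays 1 and 3. On these the mean log2 level of 11 skeletal muscle markers of 13 listed was 3.95 to 5.37 above the untreated wild-type mean, against at most 0.52 on the other 13 arrays. The actin gene of skeletal muscle, Acta1, was at 7831 to 16798 on those 3 arrays and at no more than 148 on the others, the squamous keratin gene Krt13 at 2263 to 3988 against at most 75.5, and the fat hormone gene Adipoq at 1463 to 2059 against at most 235. The mean log2 level of 8 squamous markers was 3.72 to 4.43 on those 3 arrays and 0.17 to 1.11 on the other 5 challenged arrays. On the untreated arrays it was -0.11 to 0.13, so the other challenged arrays also held some squamous marker signal. Because whole-lung RNA was measured, fewer cells of a type and less RNA per cell cannot be told apart in any of the values below.

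In the mutants, challenge moved the mitochondrial ribosomal protein genes in both directions and by small amounts. A log2 change here is challenged minus untreated, tested with limma over all 15869 kept probes with Benjamini-Hochberg adjustment and a threshold of 0.05. Of the 97 member probes, 23 passed (23.7%), 8 higher and 15 lower, against 24.0% of all kept probes, 11.0% higher and 13.0% lower. The share of members that changed was thus near the background share, and the median change of the members was -0.00 against -0.01 over all kept probes. The member changes ran from -0.60 to 0.56 on the log2 scale, and 1 member changed at least 1.5-fold, or 1.03% of the members, against 8.07% of all kept probes. This log2 scale understates changes of dim probes, so the 1.5-fold count depends on the transform. Over the settings run, the change of the Mrps10 probe ILMN_2841840 reached 0.87 and that of the Mrpl51 probe ILMN_2645772 reached -0.76. The 23 probes belong to 21 genes, 8 with a rise and 13 with a fall. For 20 of the 23 the challenged and untreated mutant arrays did not overlap. Passing the test favours such separation, and no share over all passing probes is given here, so this count describes the calls only. At an unadjusted p under 0.05 there were 40 members, against 37.8% of all kept probes. Without untreated mutant array 4, 15 members passed, and the share of all kept probes in that fit is not given here.

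In the wild types, 6 of 97 member probes passed (6.19%), all 6 of them higher, against 16.2% of all kept probes, of which 6.92% were higher and 9.23% lower. No member fell past the threshold, and 27 of the 97 had an unadjusted p under 0.05, against 31.1% of all kept probes. The member changes ran from -0.29 to 0.64 with a median of 0.04, against a median of -0.02 over all kept probes. For 5 of the 6 the challenged and untreated wild-type arrays did not overlap, again with no share over all passing probes beside it. Of these 6 risen probes 4 also passed in the mutants, which is 66.7% of the wild-type calls and 17.4% of the mutant calls. They belong to Mrps9, Mrpl17, Mrpl13 and Mrpl12. Without challenged wild-type array 3, 11 members passed in the wild types, and the share of all kept probes in that fit is not given here.

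Markers of blood and immune cells also moved with challenge, counted here, as in all gene lists below, by the brightest kept probe of a gene. By that rule 23.7% of all genes passed in the mutants, 12.1% higher and 11.6% lower, and 17.0% in the wild types, 7.84% higher and 9.13% lower. Of 8 B cell markers 6 were kept, of which 4 rose in the mutants (median 0.93) and 5 in the wild types (median 0.87). Relative to the untreated wild-type mean, their mean log2 level was 0.36 to 1.12 on the challenged mutant arrays against -0.36 to -0.13 on the untreated mutant arrays, and 0.52 to 1.24 on the challenged wild-type arrays against -0.20 to 0.15 on the untreated wild-type arrays. Of 9 T cell markers 7 were kept, all but Cd8a and Lck, and 4 rose in the mutants (median 0.50) and 3 in the wild types (median 0.34). The T cell level was 0.34 to 0.41 on the challenged mutant arrays against -0.19 to 0.02 on the untreated mutant arrays, and 0.23 to 0.48 on the challenged wild-type arrays against -0.12 to 0.27 on the untreated wild-type arrays. For both lists the mutant groups did not overlap, and the wild-type groups overlapped for T cell markers. Of 4 kept red blood cell markers 1 rose in each genotype, with medians of 0.73 in the mutants and 0.30 in the wild types. Of 8 kept neutrophil markers 2 rose in the mutants and 0 in the wild types, of 7 of plasma cells 0 changed in the mutants and 2 rose and 1 fell in the wild types, of 4 of eosinophils 0 changed in the mutants and 1 rose in the wild types, and of 6 of macrophages 1 fell in the mutants and 2 in the wild types. Where 0 passed (limma), 3 neutrophil markers had an unadjusted p under 0.05 in the wild types, and 0 plasma cell and 0 eosinophil markers did in the mutants. The part of these cells in the member changes was not tested.

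Mrps9 encodes a small-subunit protein with a bacterial counterpart. On the log2 scale used here, its probe ILMN_1233192 was the only member to change at least 1.5-fold in the wild types. It was at 738, 686, 765 and 978 on the challenged mutant arrays, against 643, 647, 557 and 569.8 on the untreated mutant arrays. The corresponding intensities were 895, 999, 752 and 976 on the challenged wild-type arrays, against 592, 594, 578 and 501 on the untreated wild-type arrays. Every challenged array lay above every untreated array of its genotype, and challenged mutant array 4 was the highest of the mutants. The log2 change was 0.36 (95% interval 0.12 to 0.60, adjusted p = 0.0312) in the mutants and 0.64 (95% interval 0.39 to 0.88, adjusted p = 0.00176) in the wild types. The difference between these responses did not pass the test, at -0.28 (95% interval -0.62 to 0.07, adjusted p = 0.52).

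Mrpl17 encodes a large-subunit protein whose bacterial counterpart lies near the tunnel through which the new chain leaves. Its probe ILMN_2639373 was at 1442, 1562, 1528 and 1702 on the challenged mutant arrays, against 1123, 1036, 1189 and 1016 on the untreated mutant arrays. For wild types it was at 1666, 2141, 1509 and 1994 on the challenged wild-type arrays, against 1343, 1161, 1329 and 1211 on the untreated wild-type arrays. Challenged and untreated arrays were apart in both genotypes, with the highest values on challenged wild-type arrays 2 and 4. The changes were 0.50 (95% interval 0.27 to 0.73, adjusted p = 0.00399) in the mutants and 0.51 (95% interval 0.28 to 0.74, adjusted p = 0.00467) in the wild types, and the interval of their difference was -0.33 to 0.31.

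Mrpl12 encodes a protein of the ribosomal stalk, the part of the large subunit that recruits translation factors. Its probe ILMN_2883147 was at 1113, 1024, 993 and 1153 on the challenged mutant arrays, against 963, 870.3, 919.9 and 821 on the untreated mutant arrays. The wild-type intensities were 1258, 1171, 1109 and 1219 on the challenged wild-type arrays, against 913, 899, 828 and 925 on the untreated wild-type arrays. The groups did not overlap in either genotype, and the lowest challenged mutant array came close to the highest untreated one. The change was 0.25 (95% interval 0.07 to 0.43, adjusted p = 0.0381) in the mutants and 0.40 (95% interval 0.22 to 0.58, adjusted p = 0.0045) in the wild types.

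Mrpl13, another large-subunit protein with a bacterial counterpart, had 2 kept probes. The probe that passed, ILMN_2982200, was at 306, 324, 379.8 and 372 on the challenged mutant arrays, against 265, 210.5, 281 and 256 on the untreated mutant arrays, and at 350.4, 386, 341 and 385 on the challenged wild-type arrays, against 330.2, 252, 208 and 250.2 on the untreated wild-type arrays. No array overlapped between treatments within a genotype. The change was 0.39 (95% interval 0.15 to 0.64, adjusted p = 0.0222) in the mutants and 0.45 (95% interval 0.20 to 0.69, adjusted p = 0.0161) in the wild types. The other probe, ILMN_2982192, gave 0.25 (SE 0.09, adjusted p = 0.057) and 0.09 (SE 0.09, adjusted p = 0.564), so it did not pass in either genotype.

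Mrpl2 and Mrpl28 passed in the wild types and not in the mutants. Mrpl2 encodes the counterpart of a bacterial protein close to the peptide-bond-forming centre, and its probe ILMN_2842366 was at 1012, 1057, 728 and 966 on the challenged wild-type arrays, against 741, 733, 566 and 719.8 on the untreated wild-type arrays. Challenged wild-type array 3 lay inside the untreated range, and the 3 other challenged arrays lay above it. The change was 0.28 (SE 0.12, adjusted p = 0.0904) in the mutants and 0.42 (SE 0.12, adjusted p = 0.0212) in the wild types. For Mrpl28 the probe ILMN_1237265 was at 1813, 1645, 1615 and 1782 on the challenged wild-type arrays, against 1396, 1291, 1306 and 1308 on the untreated wild-type arrays, with no overlap. Its change was 0.17 (SE 0.08, adjusted p = 0.147) in the mutants and 0.36 (SE 0.08, adjusted p = 0.00756) in the wild types. The difference between the genotypes' responses passed for neither gene (limma interaction, adjusted p = 0.767 for Mrpl2 and 0.533 for Mrpl28).

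**Figure D1:**
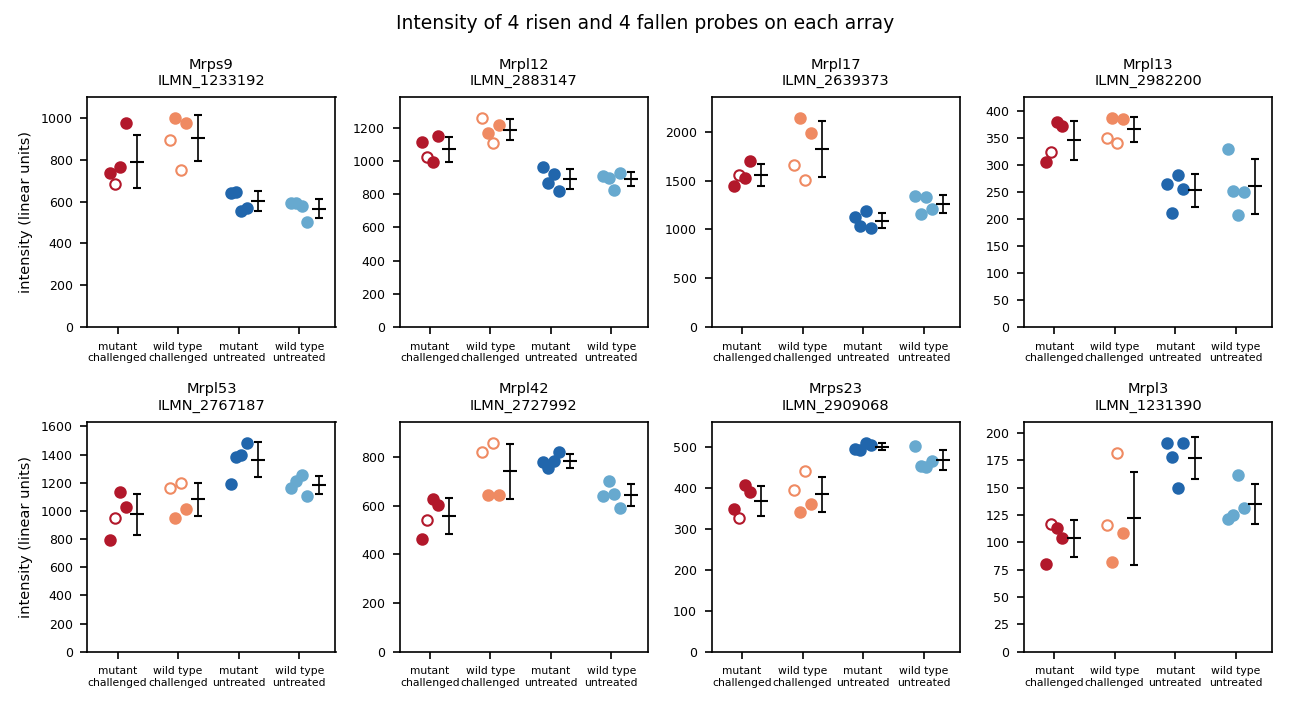
Intensity (linear units, axes from 0) on each array for 4 probes that rose in both genotypes (top) and 4 that fell in the mutants (bottom). Points are arrays, open points are the 3 challenged arrays with RNA of other tissue, and the black mark with bars is the mean ± SD of 4 arrays. Challenged arrays stand above untreated ones in both genotypes for Mrps9, Mrpl12, Mrpl17 and Mrpl13; for Mrpl42 the challenged mutant arrays (463 to 628) stand below the untreated mutant arrays (754 to 822).

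The promoters of the genes that rose in both genotypes are shown because these are the members that passed in both. RefSeq windows of GRCm38.p6 from 250 bases before to 50 bases after a gene's start were found for 67 of the 76 genes, in 73 windows. They were searched on both strands for the letters GCGCA, any base and GCGC, bound by nuclear respiratory factor 1 (NRF1), a regulator of nuclear genes for mitochondrial proteins, and for CCGGAAG, a core bound by ETS-family factors such as the GA-binding protein. Neither string can lie inside the other, though matches may overlap. Mrps9, Mrpl12 and Mrpl17 each held the NRF1 letters; Mrpl13 has no entry. Below are 100 bases before and 20 from the start, 5′ to 3′ on the gene's strand, with the NRF1 letters or their reverse complement in capitals.
Mrps9, chr1:42851133-42851252, plus strand: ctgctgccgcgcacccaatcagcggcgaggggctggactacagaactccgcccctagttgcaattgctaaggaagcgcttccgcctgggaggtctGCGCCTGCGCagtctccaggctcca
Mrpl12, chr11:120484537-120484656, plus strand: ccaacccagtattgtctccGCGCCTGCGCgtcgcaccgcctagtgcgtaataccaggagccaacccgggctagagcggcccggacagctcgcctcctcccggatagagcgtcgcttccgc
Mrpl17, chr7:105811068-105811187, minus strand: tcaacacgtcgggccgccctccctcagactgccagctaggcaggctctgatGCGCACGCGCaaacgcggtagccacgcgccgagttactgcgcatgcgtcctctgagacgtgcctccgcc
The first capital lies 5 bases before the start in Mrps9, 81 in Mrpl12 and 49 in Mrpl17.

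Over all members with an entry, 12 of 67 genes (17.9%) held the NRF1 letters, against 7.17% of 17491 protein-coding genes. Of the 62 members with a kept probe 10 held them (16.1%), against 10.2% of the 8870 genes with a kept probe. Member promoters are rich in the dinucleotide CG, with a median of 21 per window against 13 over all protein-coding genes. Among the 4373 genes with a kept probe and at least 21 CG dinucleotides, whose own median was 29, the share with the NRF1 letters was 15.9%. The members were not cut by CG count, so these CG-rich genes are not matched to them, here or below. The ETS letters stood in 26 of 67 members (38.8%), against 12.9% of all genes, and in 25 of the 62 with a kept probe (40.3%), against 17.7% of all genes with one and 22.0% of the CG-rich ones. The letters AANATGGCG, bound by the factor YY1, stood in 11 members, which is 16.4% of the 67, against 3.64% of all genes, and 17.7% of the 62, against 5.11% of all genes with a kept probe and 6.27% of the CG-rich ones. Cytosolic ribosomal protein genes held the ETS letters in 37.1% and the NRF1 letters in 8.57% of 70 genes, and respiratory complex I genes in 11.8% and 20.6% of 34 genes. A match is a description of the letters and not a binding site.

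By response, the 11 kept probes of 10 genes with the NRF1 letters included 3 that rose and 1 that fell in the mutants, and 3 that rose and 0 that fell in the wild types. The fall was that of Mrpl9. The 77 kept probes of 52 genes without the letters included 3 rises and 13 falls in the mutants and 2 rises in the wild types. For the ETS letters the 36 probes of 25 genes with them included 2 rises and 8 falls in the mutants, and the 52 probes of 37 genes without them 4 rises and 6 falls. In the wild types they included 1 and 4 rises in the same order. The 13 probes with the YY1 letters included 1 rise and 1 fall in the mutants, and the 75 without them 5 rises and 13 falls. Wild-type rises were 0 and 5. Over all kept probes 11.0% rose and 13.0% fell in the mutants, and 6.92% and 9.23% in the wild types. These splits were made with the values known and carry no test. Mrpl53 and Mrpl43, both large-subunit proteins found only in mitochondria and both lower in challenged mutants, held the ETS letters 2 times each; they are printed with those letters or their reverse complement in capitals.
Mrpl53, chr6:83109008-83109127, plus strand: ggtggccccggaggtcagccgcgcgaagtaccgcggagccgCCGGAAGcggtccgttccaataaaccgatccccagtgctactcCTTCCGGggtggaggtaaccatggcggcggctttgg
Mrpl43, chr19:45006423-45006542, minus strand: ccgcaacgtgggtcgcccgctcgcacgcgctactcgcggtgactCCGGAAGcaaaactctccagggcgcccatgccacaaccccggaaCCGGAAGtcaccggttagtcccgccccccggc
The capitals begin 59 and 16 bases before the start in Mrpl53, and 56 and 12 bases before it in Mrpl43.

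A further 4 genes rose in the challenged mutants. Mrps34 encodes a small-subunit protein of mitochondria only, in which human variants cause Leigh syndrome. Its probe ILMN_2655774 was at 1629.9, 1482, 1467 and 1524 on the challenged mutant arrays, against 1070.0, 1001, 1109.8 and 958 on the untreated mutant arrays, with every challenged array above every untreated one. The change was 0.54 (95% interval 0.26 to 0.83, adjusted p = 0.00845). The wild-type intensities were at 1501, 1828, 1288 and 2204 on the challenged wild-type arrays, against 1498, 1244, 1114 and 1385 on the untreated wild-type arrays, where the groups overlapped and the change was 0.35 (SE 0.13, adjusted p = 0.0828).

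Mrpl36, whose bacterial counterpart is a small zinc-binding protein, was measured by ILMN_2797212 at 1095, 1123, 1077 and 1277 on the challenged mutant arrays, against 784, 863, 807 and 827 on the untreated mutant arrays. All 4 untreated mutant arrays were also below all 4 untreated wild-type arrays, at 1053, 1035, 1173 and 889. The change with challenge was 0.46 (95% interval 0.24 to 0.67, adjusted p = 0.00483) in the mutants and 0.24 (SE 0.10, adjusted p = 0.112) in the wild types. Mrps18c, a relative of a bacterial small-subunit protein, changed by 0.32 (SE 0.11, adjusted p = 0.0431) in the mutants. Its probe ILMN_2747345 was at 1567, 1629.9, 1606 and 1989 on the challenged mutant arrays, against 1219.9, 1265, 1473 and 1444 on the untreated mutant arrays, so that challenged array 4 stood well above the 3 others. For Mrps10, a small-subunit protein with a bacterial counterpart, the 2 kept probes disagreed. Its dimmer probe ILMN_2841840 was at 102, 117, 61.9 and 131 on the challenged mutant arrays, against 73.0, 70.8, 50.1 and 33.0 on the untreated mutant arrays, and challenged array 3 lay inside the untreated range. The change, 0.56 (SE 0.16, adjusted p = 0.0177), was the largest of the rises in the mutants. Its brighter probe ILMN_2691360 was at 173, 139, 204 and 184 on the challenged mutant arrays, against 174, 192, 163 and 158 on the untreated mutant arrays, with overlapping groups and a change of 0.02 (SE 0.10, adjusted p = 0.923); in the wild types it was -0.25 (SE 0.10, adjusted p = 0.0982).

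The 15 falling probes of the mutants were led by Mrpl3, the counterpart of a bacterial protein that binds the large ribosomal RNA. Its probe ILMN_1231390 was at 80.0, 117, 113 and 104 on the challenged mutant arrays, against 191, 178, 149 and 191 on the untreated mutant arrays. All challenged mutant arrays were below all untreated ones. The change of -0.60 (95% interval -0.91 to -0.29, adjusted p = 0.00845) was the only member change of at least 1.5-fold in the mutants on the log2 scale used here. For wild types it was -0.14 (SE 0.15, adjusted p = 0.563), with challenged arrays at 116, 82.0, 182 and 108 and untreated arrays at 121, 125, 161 and 131. The wild-type groups overlapped, and challenged array 3, one of those with RNA of other tissue, was the highest.

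Mrpl42 and Mrpl53 are large-subunit proteins found only in mitochondria. The Mrpl42 probe ILMN_2727992 was at 463, 542, 628 and 602 on the challenged mutant arrays, against 779.8, 754, 783 and 822 on the untreated mutant arrays. On the wild-type arrays the order was not the same: 822, 645, 858 and 645 on the challenged wild-type arrays, against 641, 701, 647 and 591 on the untreated wild-type arrays. The change was -0.47 (95% interval -0.70 to -0.24, adjusted p = 0.00674) in the mutants and 0.18 (SE 0.11, adjusted p = 0.277) in the wild types, where the higher challenged values were those of arrays 1 and 3. The Mrpl53 probe ILMN_2767187 was at 794, 947, 1137 and 1026 on the challenged mutant arrays, against 1188, 1382, 1400.2 and 1482 on the untreated mutant arrays. Every challenged mutant array was below every untreated one, and the change was -0.47 (95% interval -0.71 to -0.24, adjusted p = 0.00678), with -0.13 (SE 0.11, adjusted p = 0.445) in the wild types.

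Falls were also seen for 2 other large-subunit proteins of mitochondria only. Mrpl43, by probe ILMN_2633805, was at 283, 336, 282 and 294 on the challenged mutant arrays, against 414, 357, 381 and 395 on the untreated mutant arrays, a change of -0.33 (SE 0.09, adjusted p = 0.0136). No mutant arrays overlapped between treatments, and the challenged mutant values overlapped those of both wild-type groups, which lay between 260.3 and 328. Mrpl51 fell by its probe ILMN_2645772, with every value under 80.0, at 39.1, 37.1, 36.2 and 41.7 on the challenged mutant arrays, against 49.96, 68.4, 76.1 and 70.0 on the untreated mutant arrays, a change of -0.42 (SE 0.11, adjusted p = 0.00965).

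In the small subunit, Mrps23, Mrps22 and Mrps31 are found only in mitochondria, and Mrps5 and Mrps7 have bacterial counterparts. Mrps23, by probe ILMN_2909068, was at 348, 326, 407 and 389 on the challenged mutant arrays, against 496, 493, 509.6 and 505 on the untreated mutant arrays. The untreated mutant arrays were tightly grouped and all above the challenged ones, and the change was -0.41 (95% interval -0.60 to -0.22, adjusted p = 0.00451). The wild-type change had the same sign and did not pass, at -0.26 (SE 0.09, adjusted p = 0.0561). Mrps31 fell by 2 of its 3 probes, ILMN_2736094 at -0.37 (SE 0.12, adjusted p = 0.0284) and ILMN_2732565 at -0.34 (SE 0.09, adjusted p = 0.0132). The second of these probes was at 436, 460.4, 427 and 414 on the challenged mutant arrays, against 500.2, 579, 557 and 616 on the untreated mutant arrays. Mrps22 (ILMN_2787396) changed by -0.39 (SE 0.12, adjusted p = 0.0249) and Mrps5 (ILMN_2716014) by -0.37 (SE 0.13, adjusted p = 0.0398). The challenged and untreated mutant arrays were apart for Mrps31 and Mrps22, and overlapped for Mrps5, at 146, 138, 192 and 137 on the challenged mutant arrays, against 236, 226, 173 and 204 on the untreated mutant arrays. The 4 remaining falling probes, of Mrpl4, Mrpl9 and Mrpl48 (2 probes), changed by -0.34 to -0.29; they are named to complete the count.

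**Figure D2:**
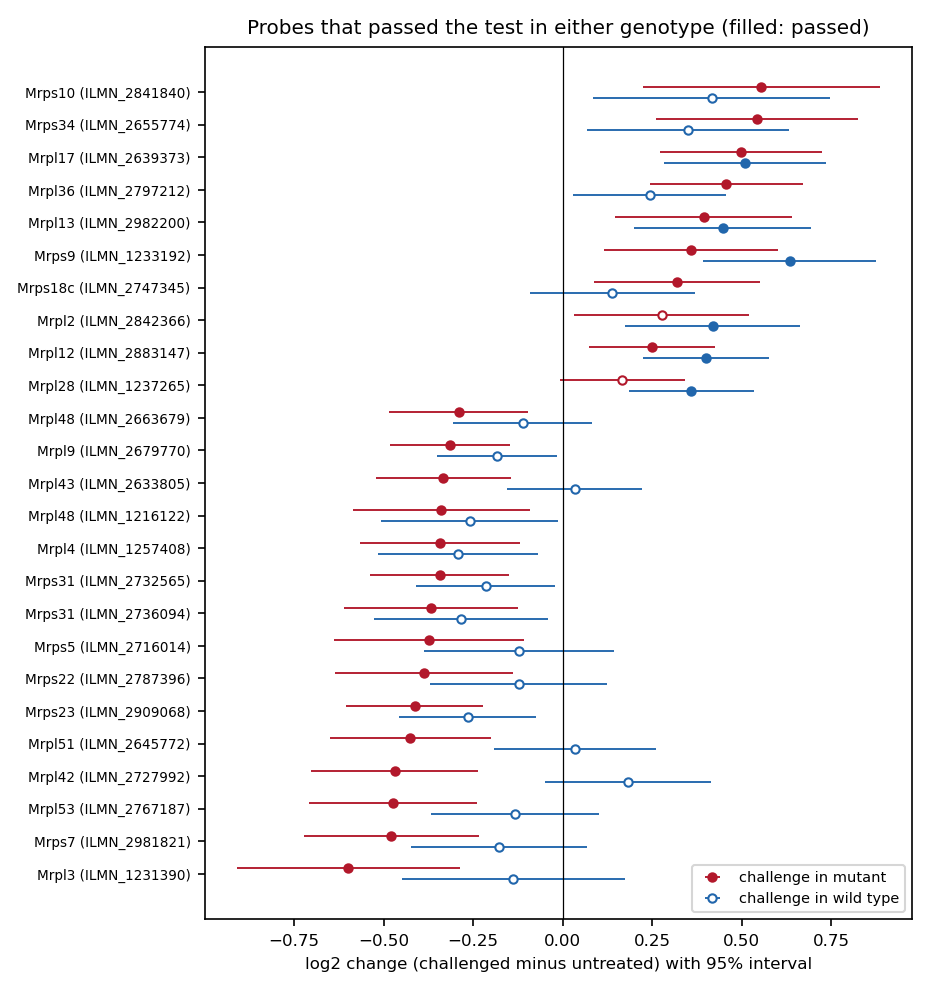
Log2 change with challenge (challenged minus untreated, with 95% interval) for the 25 member probes that passed in either genotype, mutants in red above wild types in blue. Filled points passed at adjusted p under 0.05. All 10 probes with a positive change in the mutants are also above 0 in the wild types, and 12 of the 15 that fell in the mutants are below 0 in the wild types. Of the 10, 6 were chosen as wild-type rises, so their wild-type sign was set by the choice. No share over all passing probes is given, so these counts describe the plot only.

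The rises and falls were also counted by role, in groups that are small. Over all kept probes 11.0% rose and 13.0% fell in the mutants, and 6.92% rose and 9.23% fell in the wild types. By role the mutant rises were 0% to 15.8% of the probes and the falls 9.38% to 23.5%. In the mutants the large-subunit proteins with a bacterial counterpart had 4 rises and 3 falls among 32 kept probes (median change 0.06), and those of mitochondria only 0 rises and 6 falls among 29 (median -0.11). The small-subunit proteins with a bacterial counterpart had 3 rises and 2 falls among 19 (median 0.02), and those of mitochondria only 1 rise and 4 falls among 17 (median -0.00). In the wild types the 6 rises were 5 of 32 and 1 of 19 probes of proteins with a bacterial counterpart, and of the proteins of mitochondria only 0 of 29 and 0 of 17 probes passed (limma), with 2 and 6 at an unadjusted p under 0.05. The difference between roles was not tested.

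Probes of the same gene did not always move together. Among the 21 genes with more than 1 kept probe, all probes had the same sign in 14 for the mutants and in 9 for the wild types. The difference between probes of a gene had a median of 0.13 in the mutants and 0.14 in the wild types, with the widest at 0.82 and 0.67. In 2 genes a probe that passed in the mutants was opposed in sign by another. For Mrps7, ILMN_2981821 fell by the test, at 196, 233, 238 and 215 on the challenged mutant arrays, against 266, 313, 381 and 339 on the untreated mutant arrays, a change of -0.48 (SE 0.12, adjusted p = 0.00795). Its other probe ILMN_2981818 was at 1299.7, 1155, 1143 and 1417 on the challenged mutant arrays, against 1092, 944, 1177 and 1029 on the untreated mutant arrays, a change of 0.23 (SE 0.13, adjusted p = 0.199). The first probe separated the groups and the second did not. For Mrpl51 the other probes gave 0.39 (SE 0.17, adjusted p = 0.0933) on ILMN_2653020, at 20.4, 18.1, 7.43 and 38.6 on the challenged mutant arrays, against 7.51, 24.5, -3.24 and -1.40 on the untreated mutant arrays, and -0.19 (SE 0.13, adjusted p = 0.305) on ILMN_2831273. These further Mrpl51 probes lie close to the background limit, whereas both Mrps7 probes lie far above it. Second probes of Mrpl3, Mrpl43 and Mrps5 had the sign of the passing probe and did not pass, with -0.26 (SE 0.12, adjusted p = 0.12) for Mrpl3, -0.12 (SE 0.08, adjusted p = 0.29) for Mrpl43 and -0.13 (SE 0.10, adjusted p = 0.353) for Mrps5.

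**Figure D3:**
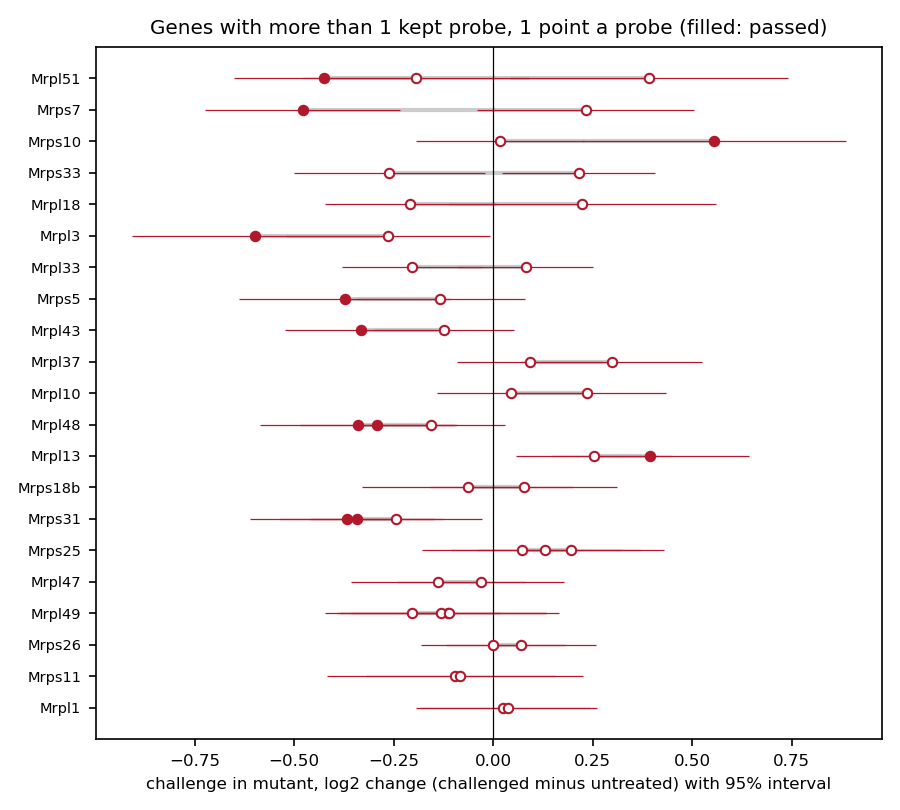
Log2 change with challenge in the mutants (challenged minus untreated, with 95% interval) for the 21 genes with more than 1 kept probe, 1 point a probe, ordered by the spread between probes. Filled points passed at adjusted p under 0.05. Mrpl51 and Mrps7 have a passing probe on one side of 0 and another probe on the opposite side.

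The mutant and wild-type responses, which share no array, ran broadly together over the members. Across the 97 probes Pearson's r was 0.74 and Spearman's rho 0.74, against 0.69 and 0.63 over all kept probes, and 77.3% of the members had the same sign in both genotypes against 71.8% of all kept probes. These are descriptions across probes, which are not independent. The mutant change was the lower of the pair for 62 of the 97 members, against 7704 of all 15869 kept probes.

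**Figure D4:**
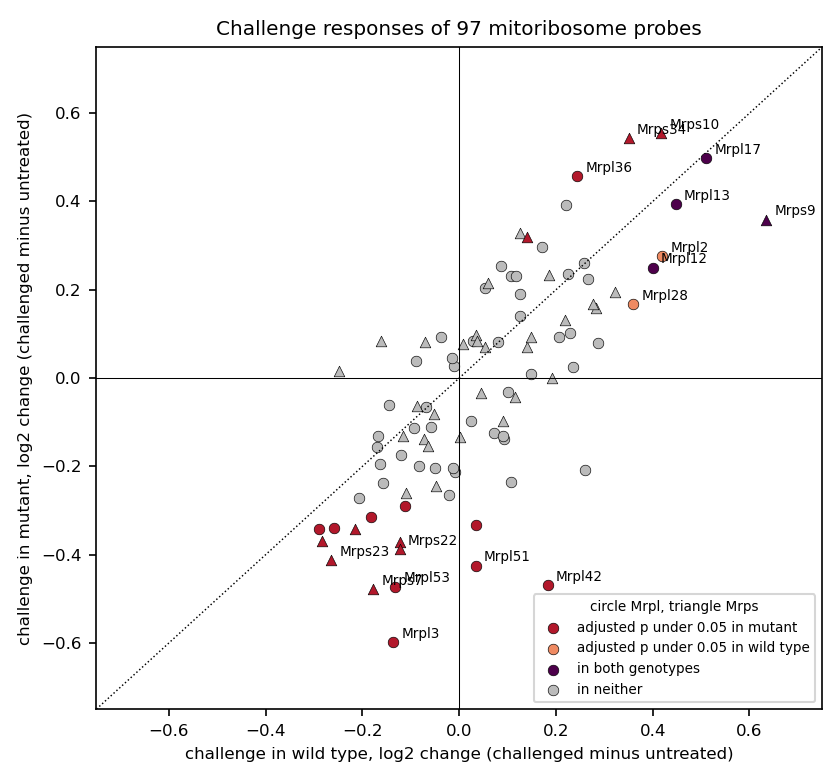
Log2 change with challenge (challenged minus untreated) in mutants (vertical) and wild types (horizontal) for 97 member probes; circles are Mrpl genes and triangles Mrps genes. Colour marks probes that passed in mutants, in wild types, in both or in neither, and the dotted line marks equal change. Most points lie near the line, and Mrpl42 stands farthest below it, at -0.47 in mutants and 0.18 in wild types.

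No member differed between the genotypes past the threshold. In challenged lungs 0 of 97 passed, against 0.00630% of all kept probes, and 9 members had an unadjusted p under 0.05 (11.5% of all kept probes did). The median difference, mutant minus wild type, was -0.06, against 0.01 over all kept probes. Of the 97 members 29 were above 0, against 8431 of all 15869 kept probes. In untreated lungs 0 of 97 passed, against 0.0189%, and 12 had an unadjusted p under 0.05 against 12.8% of all; the median was -0.00 for the members and 0.00 over all. For the interaction, the mutant response minus the wild-type response, 0 members and 0 of all kept probes passed, 6 members had an unadjusted p under 0.05 against 11.7% of all, and the median was -0.07 against 0.01. The median SE of a member's interaction was 0.15, which limits the differences between responses that 4 mice a group can show.

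Mrpl42 had the smallest p of the members under challenge and in the interaction. Its difference was -0.38 (95% interval -0.62 to -0.15, adjusted p = 0.202) in challenged lungs, 0.27 (95% interval 0.04 to 0.50, adjusted p = 0.315) in untreated lungs and -0.65 (95% interval -0.98 to -0.32, adjusted p = 0.191) in the interaction. Challenged mutant arrays, at 463 to 628, lay below all challenged wild-type arrays, at 645 to 858, whereas untreated mutant arrays, at 754 to 822, lay above all untreated wild-type arrays, at 591 to 701. The higher challenged wild-type values were those of arrays 1 and 3, which carried RNA of other tissue, and arrays 2 and 4 were both at 645. Over the settings run, the Mrpl42 difference in challenged lungs ranged from -0.44 to -0.19 and its interaction from -0.71 to -0.46. In challenged lungs the next smallest p-values were those of Mrps21 with -0.34 (SE 0.10, adjusted p = 0.215), Mrpl16 with -0.36 (SE 0.11, adjusted p = 0.238), Mrps28 with -0.32 (SE 0.11, adjusted p = 0.281), Mrps11 with -0.41 (SE 0.15, adjusted p = 0.322) and the second Mrpl3 probe, ILMN_2643264, with -0.31 (SE 0.12, adjusted p = 0.338). Mrps21, a counterpart of a bacterial small-subunit protein, was at 458, 485, 532 and 539 on the challenged mutant arrays, against 586, 634, 682 and 686 on the challenged wild-type arrays, with no overlap. All 6 of these differences were negative.

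In untreated lungs Mrpl43 had the smallest p, with 0.34 (95% interval 0.15 to 0.53, adjusted p = 0.165). Its intensities were 414, 357, 381 and 395 on the untreated mutant arrays, against 288, 318, 326 and 260.3 on the untreated wild-type arrays, and the groups did not overlap. Mrpl36 followed with -0.32 (SE 0.10, adjusted p = 0.213), Mrpl51 (ILMN_2645772) with 0.31 (SE 0.11, adjusted p = 0.238), Mrps18a (ILMN_2717916) with -0.25 (SE 0.09, adjusted p = 0.243) and Mrps18b (ILMN_2865239) with -0.30 (SE 0.11, adjusted p = 0.272). In the interaction, Mrpl18 (ILMN_2659762) had -0.47 (SE 0.14, adjusted p = 0.253), Mrpl51 -0.46 (SE 0.15, adjusted p = 0.273), Mrpl43 -0.37 (SE 0.13, adjusted p = 0.29), Mrpl3 -0.46 (SE 0.21, adjusted p = 0.403) and Mrpl53 -0.34 (SE 0.16, adjusted p = 0.416), none of them past the threshold.

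Averaged over its 97 probes, the mitochondrial ribosome had a narrow range of levels. Relative to the untreated wild-type mean, the mean log2 level was -0.05, -0.04, 0.01 and 0.04 on the challenged mutant arrays and 0.08, 0.01, 0.06 and 0.07 on the challenged wild-type arrays. It was 0.03, 0.02, 0.00 and -0.03 on the untreated mutant arrays and -0.01, -0.00, -0.02 and 0.03 on the untreated wild-type arrays. Over all 16 arrays the level thus ran from -0.05 to 0.08. The 32 genes of respiratory complex I, each by its brightest kept probe only, were at -0.03, -0.01, 0.02 and 0.12 on the challenged mutant arrays and at 0.33, 0.04, 0.35 and 0.14 on the challenged wild-type arrays. Of the 3 arrays with muscle RNA, wild-type arrays 1 and 3 thus had a high complex I level and mutant array 2, at -0.01, did not. Within groups, the median correlation of a probe with the skeletal muscle level was 0.03 for the mitochondrial ribosome, 0.44 for complex I and -0.06 over every eighth kept probe, as a description over 16 arrays. The median correlation between pairs of probes within groups was 0.05 for the mitochondrial ribosome, 0.14 for cytosolic ribosomal proteins, 0.36 for complex I and 0.00 over the every-eighth set. For 13 mitochondrial translation factors the medians were -0.02 with muscle and 0.09 between pairs, and for 15 mitochondrial aminoacyl-tRNA synthetases -0.19 and 0.03. Low values were thus not particular to the mitochondrial ribosome. These probe sets are unlike, as the mitochondrial ribosome enters with all its kept probes and the other gene lists with 1 probe a gene.

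**Figure D5:**
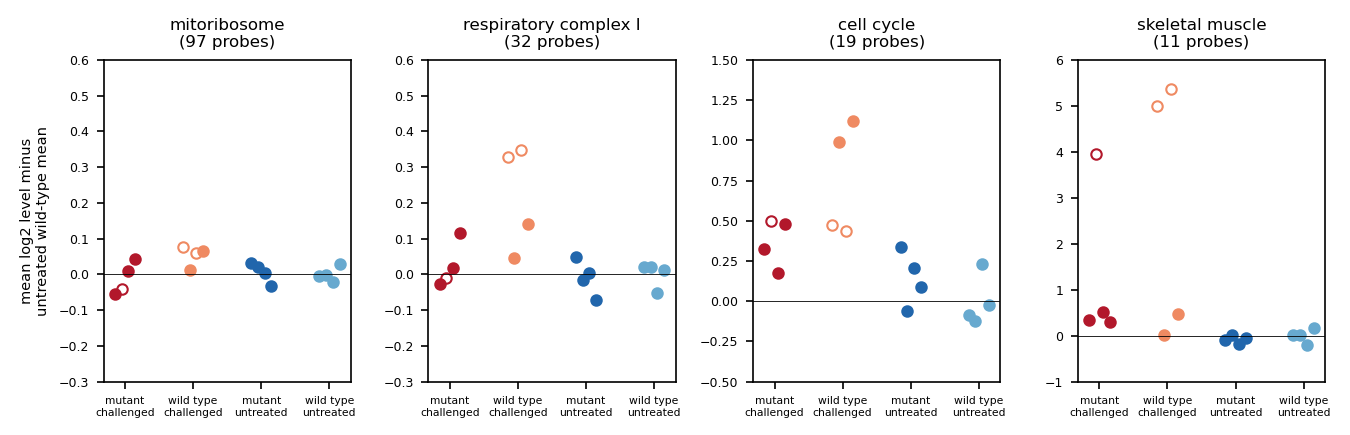
Mean log2 level on each array relative to the untreated wild-type mean for the mitochondrial ribosome, complex I, cell-cycle genes and skeletal muscle markers; the vertical scales differ between panels. Open points are the 3 challenged arrays with RNA of other tissue. The mitochondrial ribosome stays between -0.05 and 0.08, while on the 3 open points complex I is at -0.01 in the mutant and at 0.33 and 0.35 in the wild types, and skeletal muscle at 3.95 in the mutant and at 4.99 and 5.37 in the wild types.

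Without the 3 arrays with other tissue, 18 members passed in the mutants, 7 higher and 11 lower, against 21.1% of all kept probes in the same fit, and 16 of them were among the 23. The 7 lost were the rises of Mrps10, Mrps18c and Mrpl12 and the falls of Mrps5, Mrpl4 and both Mrpl48 probes. In the wild types 12 passed, 9 higher and 3 lower, including all 6 described above, against 18.2% of all kept probes. The 6 gained there were rises of Mrps34, Mrpl10 and the second Mrps7 probe (ILMN_2981818) and falls of Mrps31, Mrpl35 and Mrps23. On the 5 challenged arrays left, the squamous marker level was 0.17 to 1.11. The part of the other tissue's RNA in the remaining differences was not tested.

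Leaving out 1 array at a time showed which calls were lost in a smaller fit. A call lost under several omissions need not rest on any single animal. The highest adjusted p over all settings run, these omissions included, is given in brackets. In the mutants the rises of Mrps34, Mrpl17 and Mrpl36 and the falls of Mrpl3, Mrps7, Mrpl53, Mrpl42, Mrpl51, Mrps23, Mrpl43 and the Mrps31 probe ILMN_2732565 passed under all 16 omissions. The mutant rise of Mrps9 did not pass without untreated mutant array 3 or 4 or challenged mutant array 4 (0.112). That of Mrpl13 did not pass without untreated array 2 or challenged array 3 or 4 (0.0755), and that of Mrps10 without untreated array 4 or challenged array 2 or 4 (0.066). The fall of Mrps22 did not pass without untreated array 2 or 4 or challenged array 3 or 4 (0.0733). Mrpl12 (0.112), Mrps18c (0.14), Mrps5 (0.106) and the Mrps31 probe ILMN_2736094 (0.0964) each failed under at least 5 omissions. In the wild types Mrps9, Mrpl17, Mrpl13, Mrpl12 and Mrpl28 passed under all 16, and Mrpl2 did not pass without untreated wild-type array 3 or challenged wild-type array 1, 2 or 4 (0.0813).

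Genes that serve the mitochondrial ribosome were counted by direction in the same way. Of 21 kept genes for its assembly and ribosomal RNA maturation, 4 rose and 1 fell in the mutants, and 2 rose and 1 fell in the wild types. Over all genes 12.1% rose and 11.6% fell in the mutants, and 7.84% rose and 9.13% fell in the wild types, so the share called, 23.8% of the list in the mutants and 14.3% in the wild types, lay near the 23.7% and 17.0% of all genes. Mpv17l2, which takes part in assembling the ribosome, was lower, by -0.66 (adjusted p = 0.00137) in the mutants and -0.43 (adjusted p = 0.0202) in the wild types. Mterf4, which brings an RNA methylase to the ribosomal RNA, changed by 0.64 (adjusted p = 0.00463) and 0.32 (adjusted p = 0.132) in the same order, the GTPase gene Mtg1 by 0.54 (adjusted p = 0.00729) and -0.02 (adjusted p = 0.949), and Fastk by 0.42 (adjusted p = 0.00385) and 0.32 (adjusted p = 0.0225). Among 13 translation factors (7.69% called in each genotype), 1 rose in each and 0 fell, though in the mutants 10 of the 13 were below 0, with a median of -0.16, a lowest of -0.43 and 5 at an unadjusted p under 0.05, and in the wild types 6 were below 0, with a median of 0.01. Tsfm, an elongation factor, passed in the mutants at 0.37 (adjusted p = 0.0174) with 0.12 (adjusted p = 0.477) in the wild types, and Gfm2, a recycling factor, was at 0.14 (adjusted p = 0.321) in the mutants and passed in the wild types at 0.36 (adjusted p = 0.0209). Of 3 kept ribosomal proteins with other names, 0 passed in either genotype, with 2 at an unadjusted p under 0.05 in the mutants and 1 in the wild types; Dap3 was at 0.26 (adjusted p = 0.065) in the mutants and 0.25 (adjusted p = 0.0914) in the wild types.

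Among 15 mitochondrial aminoacyl-tRNA synthetases and related genes, 1 rose and 1 fell in each genotype, or 13.3% of the list against 23.7% of all genes in the mutants and 17.0% in the wild types. Gatb, part of the enzyme that makes glutamine-charged tRNA, changed by 0.46 (adjusted p = 0.00816) in the mutants and 0.37 (adjusted p = 0.0318) in the wild types, Mars2 by -0.36 (adjusted p = 0.0295) and -0.20 (adjusted p = 0.235), and Wars2 by -0.17 (adjusted p = 0.208) and -0.53 (adjusted p = 0.00222). Of 11 genes of mitochondrial DNA transcription and replication, 2 rose and 1 fell in the mutants (27.3%) and 0 rose and 2 fell in the wild types (18.2%), beside the same shares of all genes. The single-strand DNA-binding protein gene Ssbp1 changed by 0.72 (adjusted p = 0.00241) in the mutants and 0.41 (adjusted p = 0.0583) in the wild types, the polymerase gene Polg by -0.19 (adjusted p = 0.197) and -0.45 (adjusted p = 0.00995), and the elongation factor gene Tefm by 0.00 (adjusted p = 0.985) and -0.43 (adjusted p = 0.00718). Of 9 regulators, 2 rose in the mutants (22.2%) and 1 in the wild types (11.1%), with 0 falls in either. Esrra, a nuclear receptor that activates genes of mitochondrial metabolism, rose in both genotypes, by 0.37 (adjusted p = 0.0232) and 0.49 (adjusted p = 0.00696), and Tfe3 in the mutants, by 0.58 (adjusted p = 0.0051) against 0.22 (adjusted p = 0.266) in the wild types.

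Set beside other machineries, complex I had 5 rises and 3 falls among 32 genes in the mutants (median 0.05) and 9 rises and 0 falls in the wild types (median 0.20), and cytosolic ribosomal proteins 9 rises and 7 falls among 59 in the mutants (median -0.06) and 7 rises and 1 fall in the wild types (median 0.07). Cell-cycle genes, of which 19 were kept, had 3 rises in the mutants (median 0.24) and 16 in the wild types (median 0.73), with 0 falls in either. In the limma interaction 0 of these 19 passed, with a median of -0.55 and 11 at an unadjusted p under 0.05. Between untreated mutants and untreated wild types their median difference was 0.20, with 17 above 0 and 0 past the threshold. Over all genes by the same rule 23.7% passed in the mutants and 17.0% in the wild types, and the differences between lists were not tested.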

How the data were processed

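Lung RNA of 16 mice was measured on single-colour Illumina arrays. The authors deposited intensities on a linear scale. The numbers themselves show that they had subtracted a background, as 23.5% to 23.8% of an array's intensities are negative, and quantile normalised the arrays, which share an upper quartile of 220.674. Per the submitters' processing notes, GenomeStudio 2011.1 was used, in a role they do not give. The authors' second table, of non-normalised signals, has 32 columns of per-sample values that match no sample label; they were not used. No slide or scan batch is named in the labels.

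Here limma's normexp model (offset 16) was applied before the log2 transform, which understates changes of dim probes. The noise of that model gave no usable limit, so the limit departs from the planned one. Values below 0 were mirrored around 0, which gives a noise SD of 10.2, and their percentile 95, 16.8, was the limit. Probes above it on at least 4 of 16 arrays were kept, 15869 of 25697. R 4.3.3 with limma 3.58.1 gave every 2-sided test from a single linear model of all 16 arrays, a coefficient a group, moderated with eBayes (12 residual and 5.10 prior degrees of freedom). The Benjamini-Hochberg adjustment ran over all kept probes, and the threshold was 0.05; all adjusted p-values are limma's. The number of arrays limits the precision. The labels give each array its own mouse.

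Members and gene lists were chosen with earlier results of these data known. Named are the members past the threshold with the largest changes (at most 10 in each direction), the 6 members of smallest p where fewer than 5 passed, probes of a gene that disagree, up to 4 members of smallest p per role and pathway list, and Cox4i2. Same-numbered arrays came from different mice; the correlation of their deviations was -0.45 to 0.24 over 24 pairs, so numbers do not pair them. The fit was tested on simulated data. Alternatives covered the offset, the background model, the filter, the probes of a gene, the 3 arrays with other tissue, array weights, the shared spread, normalisation, a replicate block and each array left out; one, with the background mean held at 0, was chosen after seeing the data. Motifs were searched with Python 3.11.15.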

Additional observations from a re-analysis of the deposited data

Results flagged for a closer look

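Each of the 45 kept probes of the 30 genes that are named or passed the threshold, and the mean level of all members, was examined in each of the 4 groups. Of these 184 groups of 4 arrays, 10 held an array far from the 3 others, where chance gives about 1 in 20, or 9.2. Among challenged mutants this was array 4 for the Mrps18c probe ILMN_2747345, at 1989 against 1567 to 1629.9 on the others of its group. Among challenged wild types it was array 4 for the Mrpl4 probe ILMN_1257408, at 226 against 261 to 269, and for the Mrps5 probe ILMN_2780177, at 113 against 85.0 to 87.0, and array 3 for the Mrps7 probe ILMN_2981821, at 304 against 224 to 235. Among untreated mutants it was array 1 for the Mrpl18 probe ILMN_2823250, at 24.6 against 56.6 to 62.9, and for the Mrps31 probe ILMN_2829295, at 762 against 875 to 898, and array 4 for the Mrpl51 probe ILMN_2831273, at 13.7 against 29.4 to 32.1. Among untreated wild types it was array 4 for the Mrps9 probe ILMN_1233192, at 501 against 578 to 594, array 3 for the Mrpl2 probe ILMN_2842366, at 566 against 719.8 to 741, and array 1 for the Mrpl28 probe ILMN_1237265, at 1396 against 1291 to 1308. Challenged wild-type array 3 is 1 of the 3 arrays with RNA of other tissue, whose part in the Mrps7 value was not tested.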

How the results depend on the processing

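No named member changed sign under any alternative run. The number of members called in the mutants, 23, was 15 with no filter on dim probes and 15 with 1 probe per gene, and lay between 15 (without untreated mutant array 4) and 33 (array weights) over all alternatives. Leaving out 1 array at a time gave 15 to 25 in the mutants and 5 to 11 in the wild types, the 11 without challenged wild-type array 3. The wild-type count of 6 was 12 without the 3 arrays with other tissue, 10 with the skeletal muscle level as a covariate and 10 with array weights. With 1 probe per gene fewer probes are tested. Without the 3 arrays with other tissue, 21.1% of all kept probes passed in the mutants and 18.2% in the wild types. For the other settings no share over all probes is given, so a shift of the members cannot be told from a shift of all probes. The cause of the other shifts was not tested. The counts for genotype in challenged lungs, genotype in untreated lungs and the interaction were 0 under every alternative run. An interaction from only the arrays compared is the same fit as the one reported.

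Taking the replicate number as a block gave 23 members in the mutants, 6 in the wild types and 0 in the 3 other comparisons, and changed no call of a named member. With 3 of 24 same-numbered pairs above a correlation of 0.1 and 5 of 16 arrays correlating best with their own number, the numbers do not pair the arrays. Some alternatives give no value for a probe that is dim on an array or not the brightest of its gene. Signal over background limits the probes near 16.8, which include 2 of the 3 Mrpl51 probes.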
